A study of Mus musculus with 10 samples.

Results

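The 10 genes that encode the TGF-beta ligands, their receptors and the latent TGF-beta binding proteins were followed in mouse liver after VEGF gene transfer. They were chosen by symbol, as the ligands Tgfb1, Tgfb2 and Tgfb3, the receptors Tgfbr1, Tgfbr2 and Tgfbr3, and the latent binding proteins Ltbp1, Ltbp2, Ltbp3 and Ltbp4, and all 10 were found among the 24011 transcripts with a gene symbol in the deposited table. Liver RNA was taken from 5 AdVEGF mice and 5 AdCMV mice of strain C57BL/6, males aged 8 to 12 weeks, on day 6 after tail vein injection, and was depleted of ribosomal RNA before sequencing. AdVEGF was a serotype 5 adenovirus that carried VEGF-A165 behind the CMV promoter, which is active in most cells that take up the vector. AdCMV was the matching adenovirus with the promoter alone, so that both groups received virus and no group went without it. The comparison asks which transcripts differed in whole liver when the vector carried VEGF. Since each sample was a piece of tissue, more cells of a type and more RNA per cell cannot be told apart in any value below.

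TGF-beta ligands are secreted as latent complexes, in which the propeptide stays bound to the growth factor and is tethered to the matrix by a latent TGF-beta binding protein. Once released, the ligand binds the type II receptor, which phosphorylates the type I receptor, and the signal passes to the nucleus through SMAD proteins; the type III receptor, betaglycan, presents ligand to the others. In liver the pathway is best known for activating stellate cells, the pericytes of the sinusoids, into matrix-producing myofibroblasts.

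Expression was measured in RPKM, a read number divided by transcript length and by library total, which allows levels of different genes to be compared. A gene was tested when its mean was over 0.5 RPKM in at least 1 group. Differences are log2 fold changes, AdVEGF minus AdCMV on the log2(RPKM + 0.1) scale. Calls needed a size over 1 in either direction and, by limma with Benjamini-Hochberg adjustment over all tested genes, an adjusted p below 0.05. Libraries held 5758959 to 13494003 mapped tags in the AdCMV group and 5596565 to 8133954 in the AdVEGF group. The 21 genes of the major urinary proteins are abundant hepatocyte products. Of the reads counted on transcripts with a symbol, they took 18.0% to 50.5% in AdCMV mice and 7.84% to 28.6% in AdVEGF mice. The median log2 fold change of all tested genes was 0.38, and it was -0.0044 after median-ratio scaling, which sets the median gene equal between libraries; both scales are therefore given. As background to the labels, Vegfa was 28.3 to 39.4 RPKM in the AdVEGF mice and 13.8 to 23.2 RPKM in the AdCMV mice, with no overlap. Its log2 fold change of 0.82 (adjusted p = 0.00487, limma) lay below the fold threshold. After median-ratio scaling it was 0.42 (adjusted p = 0.0244, limma). This row is the mouse gene, as reads were mapped to the mouse genome, while the study's VEGF protein assay was for human VEGF. How much of the vector's transcript the row holds was not tested, so it does not measure the gene transfer. The study itself reported raised VEGF mRNA and protein in liver. Liver identity was clear from Alb, the serum albumin gene, at a mean of 7716 RPKM in the AdCMV group and 16666.5 RPKM in the AdVEGF group.

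Of the 10 genes, 6 were called higher in AdVEGF livers (Tgfb1, Tgfb2, Tgfb3, Tgfbr2, Tgfbr3 and Ltbp4) and 0 were called lower, against 13.0% of the 13933 tested genes called higher and 1.54% called lower. Tgfbr1 and Ltbp3 were tested and not called, and Ltbp1 and Ltbp2 were too low to be tested. After median-ratio scaling, 5 of the 10 were called higher and 0 lower, against 7.77% and 3.14% of tested genes, with Tgfbr2 no longer called. Every AdVEGF mouse was above every AdCMV mouse for 5 of the tested genes, Tgfb2, Tgfb3, Tgfbr3, Ltbp3 and Ltbp4, against 14.3% of tested genes. After median-ratio scaling there were again 5, against 10.6%, with Tgfbr2 in the place of Ltbp3. The median log2 fold change of the 8 tested members was 1.74, and 1.36 after median-ratio scaling. Tgfb2 and Tgfb3 passed the filter only through the AdVEGF group, in which they were high. The study picked several of these genes for display on the same mice, so these counts are not independent evidence of their direction. It also measured Tgfb1 and Tgfb3 by RT-qPCR and reported significant differences between VEGF-treated and control mice.

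**Figure D1:**
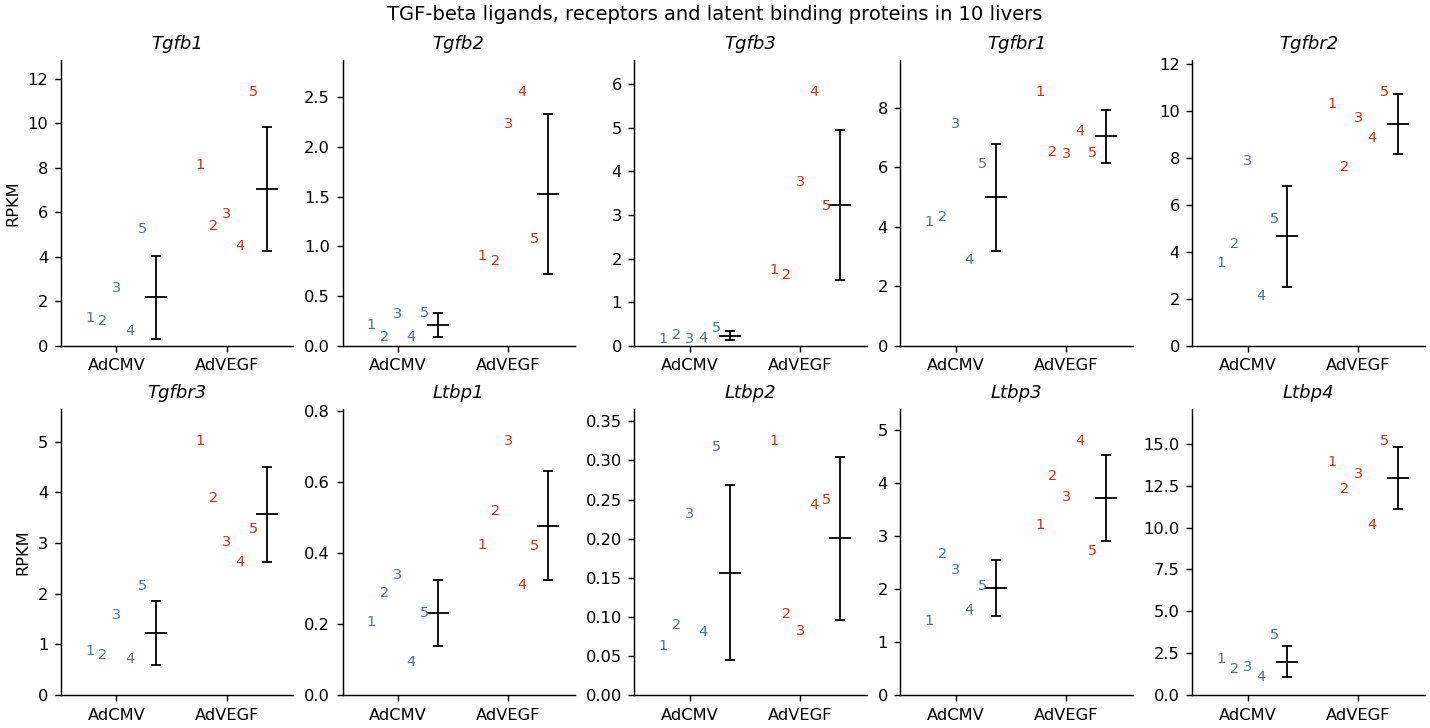
RPKM of the 10 genes, 1 panel a gene, with mouse number as the plotting symbol, AdCMV in blue and AdVEGF in red; the black bar is the mean and SD of 5 mice, and each vertical axis starts at 0. Ltbp4 sits at 10.2 to 15.2 RPKM in AdVEGF mice and at 1.07 to 3.56 RPKM in AdCMV mice, while the groups overlap for Tgfbr1, which spans 2.89 to 7.45 and 6.45 to 8.53 RPKM.

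Promoter sequences are shown for 2 ligands that rose, the latent binding protein that rose most and a receptor that was not called, to set their start sites side by side. RefSeq windows on build GRCm38.p6, 250 bases before the start and 50 from it, were on hand for 8 of the 10 genes, 12 windows in all, and not for Tgfb3 and Tgfbr3. Capitals mark matches on either strand to the GC box GGGCGG, which Sp1-like factors bind, the SMAD box CAGAC, the TATA box TATAAA and the AP-1 site TGACTCA. The windows lie at chr7:25686752-25687051 on the plus strand for Tgfb1, chr1:186705940-186706239 on the minus strand for Tgfb2, chr7:27337563-27337862 on the minus strand for Ltbp4 (the first of its 3 windows) and chr4:47352972-47353271 on the plus strand for Tgfbr1 (the first of 2), each written 5′ to 3′ along the gene.
Tgfb1: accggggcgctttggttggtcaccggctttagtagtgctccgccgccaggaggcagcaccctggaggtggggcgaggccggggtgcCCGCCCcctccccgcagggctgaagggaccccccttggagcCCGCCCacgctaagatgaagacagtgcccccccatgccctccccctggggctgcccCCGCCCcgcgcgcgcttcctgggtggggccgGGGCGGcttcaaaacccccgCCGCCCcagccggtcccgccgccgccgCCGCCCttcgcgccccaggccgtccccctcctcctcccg
Tgfb2: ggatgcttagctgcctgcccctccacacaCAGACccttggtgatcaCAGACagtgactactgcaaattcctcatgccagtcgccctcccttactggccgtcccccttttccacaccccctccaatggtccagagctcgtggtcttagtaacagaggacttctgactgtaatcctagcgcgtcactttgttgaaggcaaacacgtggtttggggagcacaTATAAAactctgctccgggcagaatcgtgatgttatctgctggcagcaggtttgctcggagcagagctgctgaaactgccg
Ltbp4: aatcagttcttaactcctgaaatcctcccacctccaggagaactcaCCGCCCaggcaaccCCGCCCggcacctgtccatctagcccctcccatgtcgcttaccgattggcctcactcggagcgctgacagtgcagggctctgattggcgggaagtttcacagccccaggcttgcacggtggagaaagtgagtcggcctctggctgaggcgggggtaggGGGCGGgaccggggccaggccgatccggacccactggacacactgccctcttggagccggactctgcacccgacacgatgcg
Tgfbr1: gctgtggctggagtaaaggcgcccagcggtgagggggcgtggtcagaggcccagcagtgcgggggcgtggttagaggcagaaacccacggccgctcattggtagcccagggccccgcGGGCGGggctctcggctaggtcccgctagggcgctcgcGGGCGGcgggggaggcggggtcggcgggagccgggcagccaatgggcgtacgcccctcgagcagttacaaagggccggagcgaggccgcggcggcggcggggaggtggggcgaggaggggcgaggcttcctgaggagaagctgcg

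The Tgfb1 window held 6 GC boxes and was 77% G and C, with no SMAD box and no TATA box. Tgfb2 had another layout, with a TATA box 31 bases before the start, 2 SMAD boxes and no GC box, at 54.3% G and C. The printed Ltbp4 window held 3 GC boxes and the printed Tgfbr1 window 2, and neither held any of the other motifs. Across the 32851 promoter windows of the reference, 35.7% held a GC box, 49.6% a SMAD box, 13.6% a TATA box and 5.2% an AP-1 site, and the median content of G and C was 52.7%. Among the 8 genes with windows, 4 held a GC box and 6 a SMAD box in any of their windows, 1 a TATA box (Tgfb2) and 1 an AP-1 site (Ltbp3, where it overlaps a SMAD box). A match is a run of letters and not a measured site. The deposited transcripts are placed on build mm9. If the shift between builds at Tgfb1, on the same chromosome, also holds at Ltbp4, the deposited start is that of window 2. That window, chr7:27333599-27333898 on the minus strand, held 7 GC boxes at 80.3% G and C and is not the printed one. Whether the shift holds there was not tested. For Tgfbr1, which of its windows the deposited start matches was not tested.

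All 3 ligand genes rose. Tgfb1, the major isoform in most tissues, is at chromosome 7, 26472021 to 26490015 on the plus strand of mm9. Its RPKM was 1.26, 1.14, 2.62, 0.661 and 5.25 in AdCMV mice 1 to 5 and 8.11, 5.36, 5.91, 4.48 and 11.4 in AdVEGF mice 1 to 5. The groups met at a single point, since AdCMV mouse 5 was above AdVEGF mouse 4, and 4 of 5 AdVEGF mice exceeded every AdCMV mouse. The means were 7.05 ± 2.78 RPKM (SD, n = 5) and 2.18 ± 1.86 RPKM (SD, n = 5), a log2 fold change of 1.92 (SE 0.42, adjusted p = 0.00301, limma). With median-ratio scaling it was 1.54 (SE 0.40, adjusted p = 0.0145, limma), and only 2 of 5 AdVEGF mice were then above all AdCMV mice. Without AdCMV mice 3 and 5, the pair with the lowest share of major urinary protein reads in that group, the log2 fold change was 2.64. These mice also had the highest Tgfb1 of their group, so leaving them out had to raise the difference. The setting was chosen after seeing the data.

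Tgfb2, the isoform with the TATA-box promoter above, lies on the minus strand of chromosome 1 from 188447065 to 188529871 (mm9). It was close to the detection limit in AdCMV mice, at 0.205, 0.094, 0.323, 0.09 and 0.331 RPKM from 4 to 12 reads, and reached 0.906, 0.856, 2.235, 2.555 and 1.07 RPKM in AdVEGF mice from 24 to 98 reads. The groups did not overlap, and AdVEGF mice 3 and 4 were well above the other three. The means were 1.52 ± 0.807 RPKM (SD, n = 5) against 0.209 ± 0.118 RPKM (SD, n = 5), with a log2 fold change of 2.35 (SE 0.41, adjusted p = 0.000471, limma) and of 2.05 (SE 0.35, adjusted p = 0.00103, limma) after median-ratio scaling. A pseudocount of 1 gave 1.01, just past the fold threshold, since the added value weighs heavily on levels this low.

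Tgfb3, on the minus strand of chromosome 12 from 87397693 to 87419991 (mm9), had the largest log2 fold change of the 10 genes on both scales. Its RPKM was 0.164, 0.241, 0.15, 0.188 and 0.411 in AdCMV mice 1 to 5, from 4 to 11 reads, and 1.74, 1.64, 3.76, 5.83 and 3.21 in AdVEGF mice 1 to 5, from 33 to 160 reads. The lowest AdVEGF mouse stood well clear of the highest AdCMV mouse, and mouse 4 was again the highest. The log2 fold change was 3.23 (SE 0.37, adjusted p = 5.9e-06, limma), and 2.89 (SE 0.35, adjusted p = 7.9e-05, limma) after median-ratio scaling. With AdCMV values this low, the fold depends on the added 0.1, and a pseudocount of 1 gave 1.69.

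The mix of ligands varied among AdVEGF livers. Tgfb1 made up 77.3%, 77.2%, 84.7%, 70.4% and 87.6% of the summed ligand RPKM in AdCMV mice 1 to 5, and 75.4%, 68.3%, 49.7%, 34.8% and 72.7% in AdVEGF mice 1 to 5. It was thus the most abundant ligand transcript in 9 of 10 livers, and in AdVEGF mouse 4 Tgfb3 passed it, with a share of 45.3%. The share of Tgfb3 was 4.85% to 20.02% in AdCMV mice and 16.2% to 45.3% in AdVEGF mice, and that of Tgfb2 was 5.53% to 12.6% and 6.83% to 19.9%. These ranges overlap, so the shift toward Tgfb3 was not seen in every AdVEGF liver. The summed ligand RPKM did separate, at 0.939 to 5.99 in AdCMV mice and 7.85 to 15.7 in AdVEGF mice. Shares and ratios within a liver do not depend on scaling between libraries. They are given as descriptions and were not tested.

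**Figure D2:**
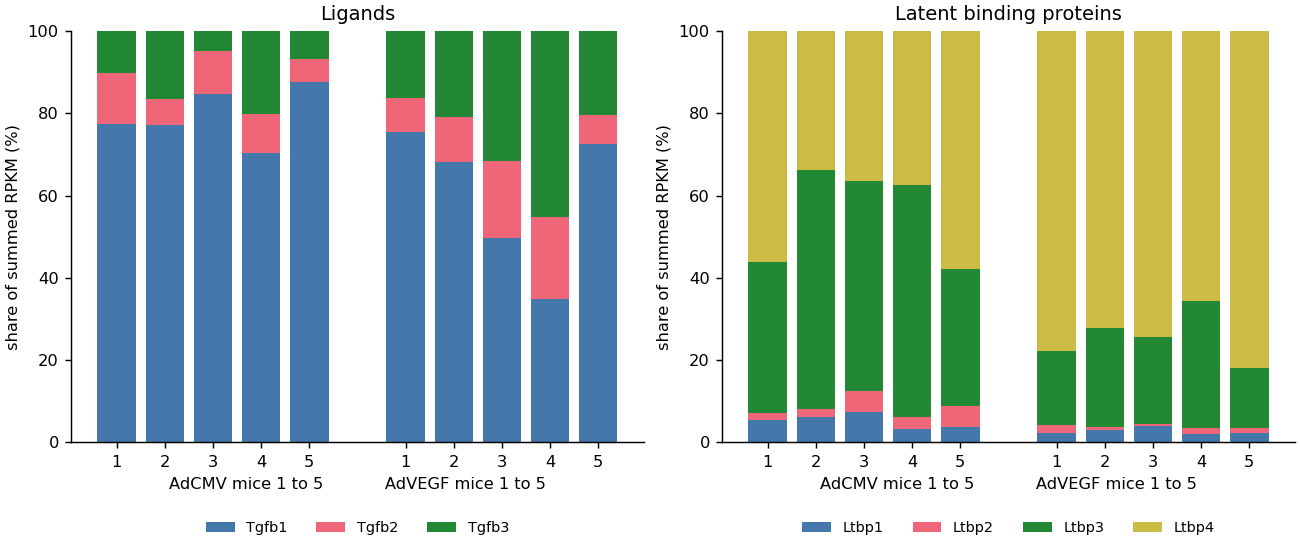
Share of each gene in the summed RPKM of the 3 ligands (left) and of the 4 latent binding proteins (right), in percent, 1 bar a mouse. Tgfb1 is the largest ligand share in every mouse but AdVEGF mouse 4, and Ltbp4 holds 65.6% to 81.8% of the binding protein RPKM in AdVEGF mice against 33.8% to 57.8% in AdCMV mice.

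The receptors moved to different degrees. Tgfbr1, the type I receptor and signaling kinase, lies on the plus strand of chromosome 4 from 47366177 to 47427796 (mm9). Its RPKM was 4.18, 4.31, 7.45, 2.89 and 6.11 in AdCMV mice 1 to 5 and 8.53, 6.50, 6.45, 7.22 and 6.46 in AdVEGF mice 1 to 5. AdCMV mouse 3 lay inside the AdVEGF range, and the AdVEGF mice differed little from each other. The log2 fold change of 0.55 (SE 0.24, adjusted p = 0.102, limma) did not pass, and the estimate less and plus 2 standard errors ran from 0.071 to 1.03. After median-ratio scaling it was 0.16 (SE 0.14, adjusted p = 0.444, limma), with 2 standard errors on either side running from -0.12 to 0.43, which leaves out a doubling. Reads were not scarce here, at 154 to 332 in AdCMV mice and 204 to 332 in AdVEGF mice.

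Tgfbr2, the type II receptor that binds ligand first, is on the minus strand of chromosome 9 from 115996813 to 116084481 (mm9). Its RPKM was 3.52, 4.35, 7.88, 2.12 and 5.39 in AdCMV mice 1 to 5 and 10.3, 7.59, 9.69, 8.83 and 10.8 in AdVEGF mice 1 to 5. Only AdVEGF mouse 2 fell below the highest AdCMV mouse. The log2 fold change was 1.12 (SE 0.28, adjusted p = 0.00785, limma), just past the fold threshold. It was 0.73 (SE 0.19, adjusted p = 0.0159, limma) after median-ratio scaling and 0.88 without AdCMV mouse 4, and the gene was called in neither.

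Tgfbr3, the co-receptor betaglycan, is on the minus strand of chromosome 5 from 107535589 to 107718614 (mm9). It was measured at 0.87, 0.798, 1.58, 0.703 and 2.16 RPKM in AdCMV mice 1 to 5 and at 5.02, 3.88, 3.02, 2.63 and 3.28 RPKM in AdVEGF mice 1 to 5. There was no overlap, and AdVEGF mice 3 and 4, which led for Tgfb2 and Tgfb3, were the lowest of the group here. The log2 fold change was 1.56 (SE 0.31, adjusted p = 0.00129, limma), and 1.18 (SE 0.24, adjusted p = 0.00304, limma) after median-ratio scaling.

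Within each liver the balance of the receptors differed between the groups. The ratio of Tgfbr2 to Tgfbr1 RPKM was 0.844, 1.01, 1.06, 0.734 and 0.882 in AdCMV mice 1 to 5 and 1.21, 1.17, 1.50, 1.22 and 1.67 in AdVEGF mice 1 to 5, with no overlap. That of Tgfbr3 to Tgfbr1 was 0.185 to 0.353 in AdCMV mice and 0.364 to 0.597 in AdVEGF mice, also with no overlap though the ranges almost touch. The binding receptors thus stood higher relative to the type I kinase in every AdVEGF liver.

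**Figure D3:**
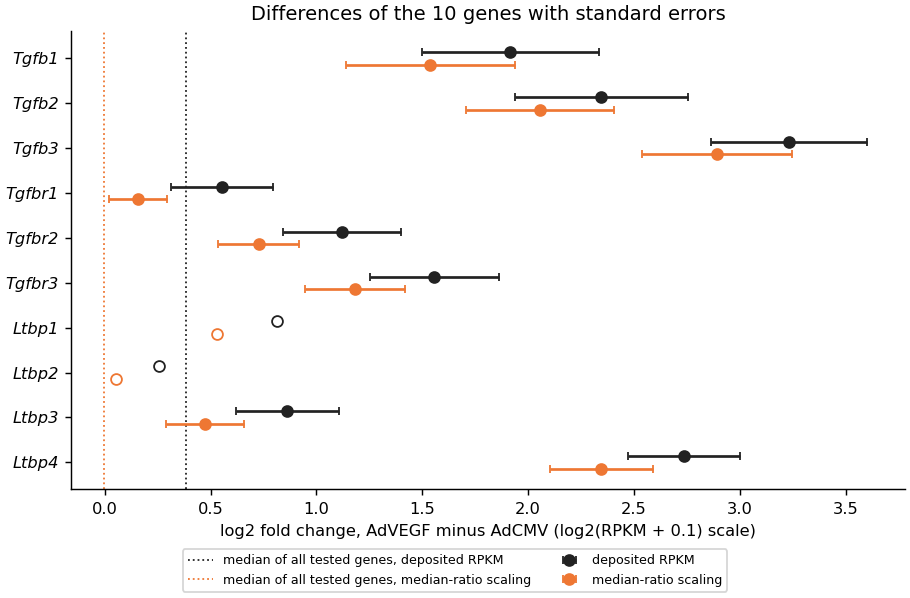
Log2 fold change, AdVEGF minus AdCMV, of the 10 genes with standard errors, from deposited RPKM (black) and after median-ratio scaling (orange); hollow points were not tested, and dotted lines mark the median of all tested genes on each scale. The order of the tested genes, from Tgfb3 at 3.23 to Tgfbr1 at 0.55 on the deposited scale, is the same on both scales, and every orange point lies to the left of its black one.

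The latent binding proteins were led by Ltbp4, on the minus strand of chromosome 7 from 28090160 to 28118667 (mm9), which binds the latent complex of Tgfb1 and takes part in elastic fiber assembly. Its RPKM was 2.13, 1.55, 1.68, 1.07 and 3.56 in AdCMV mice 1 to 5 and 13.9, 12.3, 13.2, 10.2 and 15.2 in AdVEGF mice 1 to 5. All AdVEGF livers fell in a narrow band far above the control band, from 375 to 518 reads against 51 to 106. The means were 13.0 ± 1.88 RPKM (SD, n = 5) and 2.00 ± 0.953 RPKM (SD, n = 5), the log2 fold change was 2.74 (SE 0.27, adjusted p = 1.2e-06, limma), and it was 2.35 (SE 0.24, adjusted p = 1.8e-05, limma) after median-ratio scaling.

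Ltbp3, a binding protein known from bone and tooth growth, lies on the plus strand of chromosome 19 from 5740904 to 5758532 (mm9). It was 1.39, 2.66, 2.36, 1.60 and 2.05 RPKM in AdCMV mice 1 to 5 and 3.21, 4.12, 3.74, 4.79 and 2.71 RPKM in AdVEGF mice 1 to 5. AdVEGF mouse 5 cleared the highest AdCMV mouse by little. The log2 fold change of 0.86 (SE 0.24, adjusted p = 0.0166, limma) was below the fold threshold, and after median-ratio scaling it was 0.47 (SE 0.18, adjusted p = 0.0829, limma) with the groups overlapping.

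Ltbp1 and Ltbp2 were scarce. Ltbp1, the founding member of the family, on the plus strand of chromosome 17 from 75578150 to 75792307 (mm9), was 0.094 to 0.339 RPKM in AdCMV mice and 0.31 to 0.716 RPKM in AdVEGF mice, from 6 to 27 reads in any liver. Ltbp2, which does not bind latent TGF-beta and belongs to elastic fibers, on the minus strand of chromosome 12 from 86124162 to 86217445 (mm9), was 0.063 to 0.317 RPKM and 0.082 to 0.325 RPKM, from 3 to 13 reads. The differences in the group means of log2 values were 0.82 and 0.26, both untested at the filter used; with no filter their adjusted p was 0.0773 and 0.636 (limma). At this depth no difference in Ltbp2 was detectable. Ltbp2 also shares 694 bases with D030025P21Rik on the other strand, which was below 0.02 RPKM on average in both groups, and the sources used here do not say whether reads were counted by strand.

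The mix of binding proteins changed more evenly than that of the ligands. Ltbp4 held 56.1%, 33.8%, 36.4%, 37.5% and 57.8% of the summed RPKM of the family in AdCMV mice 1 to 5, and 77.9%, 72.2%, 74.4%, 65.6% and 81.8% in AdVEGF mice 1 to 5. Ltbp3 was the larger of the pair in 3 of 5 AdCMV livers and in no AdVEGF liver, and the ratio of Ltbp4 to Ltbp3 ran from 0.583 to 1.74 and from 2.13 to 5.61, with no overlap. The summed RPKM of the family was 2.85 to 6.16 in AdCMV mice and 15.5 to 18.6 in AdVEGF mice.

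Ordered by mean RPKM, the AdCMV livers ran Tgfbr1, Tgfbr2, Tgfb1, Ltbp3, Ltbp4, Tgfbr3, Ltbp1, Tgfb3, Tgfb2 and Ltbp2. Of the neighbours in that order, only Tgfbr3 and Ltbp1 had ranges that did not overlap. In the AdVEGF livers the order was Ltbp4, Tgfbr2, Tgfb1, Tgfbr1, Ltbp3, Tgfbr3, Tgfb3, Tgfb2, Ltbp1 and Ltbp2, with no overlap between Tgfbr1 and Ltbp3 and between Tgfb2 and Ltbp1. Ltbp4 thus moved from the middle of the order to the top, and it exceeded Tgfbr2 in 5 of 5 AdVEGF mice. Tgfb1 and Tgfbr1 were level in the AdVEGF group, at 7.05 and 7.03 RPKM.

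Markers of several cell types moved with these genes. The counts of called markers below stand beside 13.0% of all tested genes called higher and 1.54% called lower. After median-ratio scaling these shares were 7.77% and 3.14%. Lists given with a single count had the same count on both scales. The summed RPKM of 8 endothelial markers was 25.4 to 51.9 in AdCMV mice and 195 to 268 in AdVEGF mice, and 8 of 8 were called higher, led in level by Egfl7 at means of 16.8 and 91.4 RPKM and Cdh5, VE-cadherin, at 6.33 and 37.0 RPKM. Markers of sinusoidal endothelium, 6 of 6 called and 5 of 6 after median-ratio scaling, summed to 46.6 to 78.3 and 165 to 243 RPKM. Those of stellate cells, 7 of 7 called, summed to 18.3 to 32.3 and 66.1 to 121 RPKM. Smooth muscle and portal fibroblast markers, 3 of 6 called and 2 of 6 after median-ratio scaling, summed to 3.59 to 9.02 RPKM in AdCMV mice and to 22.9, 24.6, 50.4, 64.6 and 31.9 RPKM in AdVEGF mice 1 to 5. Mice 3 and 4 were the highest of these, as for Tgfb2 and Tgfb3. The list did not move as one: Acta2 carried the AdVEGF sum, at means of 1.80 RPKM in AdCMV mice and 29.3 RPKM in AdVEGF mice, while Thy1, the largest part of the AdCMV sum, was at 3.43 and 2.54 RPKM, with a log2 fold change of -0.38 (adjusted p = 0.352, limma), or -0.76 (adjusted p = 0.0291, limma) after median-ratio scaling. Cnn1 and Gli1 were not called. Platelet and megakaryocyte markers, 3 of 5 called, summed to 3.34 to 6.62 and 8.07 to 33.9 RPKM, and platelets are known to store the Tgfb1 product.

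The other marker lists moved to different degrees and not all in the same direction. Kupffer cell markers, 2 of 6 called, summed to 51.3 to 121 RPKM in AdCMV mice and 116 to 171 RPKM in AdVEGF mice. T and NK cell markers, 4 of 6 called lower, summed to 6.82 to 27.3 and 5.44 to 11.2 RPKM. B cell markers, 3 of 4 called higher and 1 of 4 after median-ratio scaling, summed to 0.669 to 1.71 and 2.88 to 7.82 RPKM. Neutrophil markers, 2 of 4 called, overlapped in sum at 14.9 to 96.1 and 15.6 to 192 RPKM, with Mpo at 0 in all AdCMV mice. Cholangiocyte markers, 1 of 5 called, summed to 24.2 to 53.6 and 281 to 726 RPKM, mostly through Spp1, while Krt19 and Krt7 stayed below 0.6 RPKM on average in both groups. Sox9, of the same list, was at 4.56 to 6.39 and 6.79 to 13.98 RPKM, with no overlap. Its log2 fold change of 0.88 (adjusted p = 0.00653, limma) was below the fold threshold, and was 0.49 (adjusted p = 0.108, limma) after median-ratio scaling. None of the 3 mesothelial markers was tested, at sums of 0.198 to 0.687 and 0.286 to 1.21 RPKM. Hepatocyte markers, 2 of 6 called and 0 of 6 after median-ratio scaling, summed to 10807 to 16693 and 23693 to 28135 RPKM. The part of any of these cell types in the differences of the TGF-beta genes was not tested.

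Set against the endothelial markers of the same liver, the 10 genes fell into different patterns. Ltbp4 was 5.28 ± 1.83 RPKM (SD, n = 5) per 100 RPKM of summed endothelial markers in AdCMV mice and 5.86 ± 1.38 (SD, n = 5) in AdVEGF mice, with wide overlap, so it rose about as much as those markers did. Tgfbr1 was 11.3 to 14.3 per 100 in AdCMV mice and 2.56 to 3.97 in AdVEGF mice, and Tgfbr2 was 8.33 to 15.2 and 3.29 to 5.28. For these receptors, and for Tgfbr3 at 2.34 to 4.51 and 0.979 to 2.33, every AdVEGF mouse was below every AdCMV mouse. The Tgfbr3 ranges almost touch. Ltbp3, at 4.29 to 7.81 and 1.32 to 2.12, and the scarce Ltbp1 and Ltbp2 were also lower in every AdVEGF mouse. Ltbp1 was at 0.369 to 0.840 and 0.116 to 0.284, and Ltbp2 at 0.207 to 0.662 and 0.0326 to 0.151. Tgfb3 went the other way in its mean, 0.626 ± 0.221 and 1.38 ± 0.568 (SD, n = 5 each), with a small overlap, and Tgfb1 overlapped widely at 2.60 to 10.96 and 1.67 to 5.57.

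Set against the smooth muscle and portal fibroblast markers, Tgfb2 was 1.79 to 3.84 RPKM per 100 in AdCMV mice and 3.36 to 4.44 in AdVEGF mice, with overlap. This base is mostly Thy1 and Acta2 in AdCMV mice and mostly Acta2 in AdVEGF mice, so it is not the same mix in both groups. Tgfb3 stayed higher in AdVEGF mice on that base, at 6.63 to 10.1 per 100 against 1.66 to 5.24, and on the base of stellate markers, at 1.44 to 6.94 per 100 against 0.661 to 1.27, with no overlap in either. Ltbp4 was also higher relative to stellate markers, at 11.5 to 22.9 per 100 against 5.20 to 11.03, and it overlapped widely on the smooth muscle base, at 15.8 to 60.9 per 100 against 18.6 to 41.3. Tgfbr1 stayed lower in every AdVEGF mouse relative to stellate markers, while Tgfbr2 and Tgfbr3 overlapped on that base. These ratios are descriptions of tissue RNA and were not tested.

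**Figure D4:**
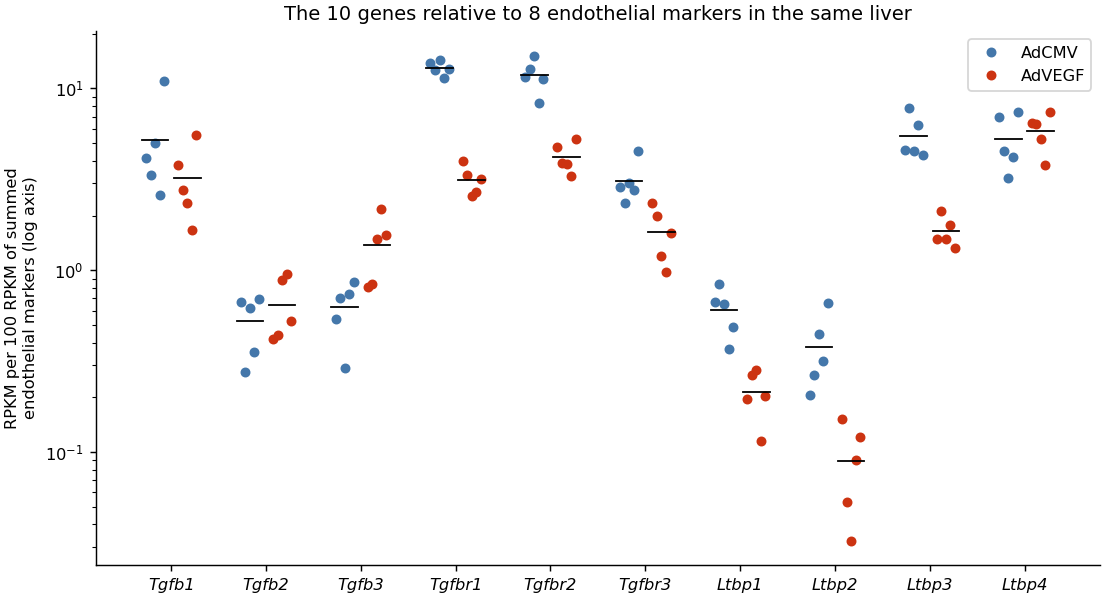
RPKM of each of the 10 genes per 100 RPKM of summed endothelial markers in the same liver, on a log axis, with 1 point a mouse, AdCMV in blue and AdVEGF in red, and a bar at the group mean. Tgfbr1 drops from 11.3 to 14.3 in AdCMV mice to 2.56 to 3.97 in AdVEGF mice, Ltbp4 overlaps between the groups, and Tgfb3 has the higher mean in AdVEGF mice.

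The rest of the pathway was read from 53 genes in 4 lists, of which 48 were tested, 23 were called higher and 0 lower, and 21 were higher and 0 lower after median-ratio scaling, beside the 13.0% and 7.77% of all tested genes called higher on these scales. Mmp2 and Cdkn2b, at means of 0.294 and 0.203 RPKM in AdCMV mice, passed the filter only through the AdVEGF group, so their calls are no support for these counts. Itgb8, Fbn2, Cd109, Fmod and Aspn were too low to test. Of the 15 genes of ligand activation, which free TGF-beta from its latent complex or hold that complex in place, 7 were called higher. They were led by Plat, tissue plasminogen activator, with a log2 fold change of 3.25 (SE 0.32, adjusted p = 1.4e-06, limma), the matrix metalloproteinase Mmp2 at 2.94, the microfibril protein Fbn1 at 2.75 and Lrrc32, also called GARP, which displays latent TGF-beta on the cell surface, at 2.54. Emilin1 was at 1.94, while Mmp14 at 1.21 and Nrros at 1.02, named here after their values were seen, lost their calls after median-ratio scaling. The tested genes not called were the integrin genes Itgav, Itgb5 and Itgb6 at 0.77, 0.51 and 0.52, Thbs1 at 0.78, Tgm2 at 0.94 and Furin, the protease that cleaves the propeptide, at -0.02. After median-ratio scaling Furin was lower, at -0.42 (adjusted p = 0.0345, limma), short of the fold threshold. The list's median was 1.02, and 0.63 after median-ratio scaling, beside the 0.38 and -0.0044 of all tested genes.

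Co-receptors and extracellular binders were called higher for 5 of 10 genes, on both scales. Bgn, the proteoglycan biglycan, led with a log2 fold change of 2.01 (SE 0.26, adjusted p = 1.8e-05, limma), followed by the secreted protease Htra1 at 1.76, the pseudoreceptor Bambi at 1.74, the endothelial co-receptor Eng at 1.50 and the endothelial type I receptor Acvrl1 at 1.49. Eng was 36.6 to 46.3 RPKM in AdVEGF mice and 8.56 to 17.4 RPKM in AdCMV mice, well above Tgfbr3 in both. Dcn at 0.84 and Lrg1 at 0.68 were tested and not called. The list's median was 1.50, and 1.104 after median-ratio scaling.

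SMAD transducers and their brakes had 3 of 14 genes called higher on both scales. This stands beside 13.0% of all tested genes, and 7.77% after median-ratio scaling. The count is small and was not tested against these shares. The list's median was 0.66, or 0.26 after median-ratio scaling. The called genes were Pmepa1 at 1.99 (SE 0.24, adjusted p = 1.2e-05, limma), Smad7 at 1.63 and Fkbp1a at 1.50. Pmepa1 and Smad7 are feedback inhibitors that TGF-beta itself induces, and Fkbp1a encodes FKBP12, which binds the type I receptor. The transducers Smad2, Smad3 and Smad4, at 0.49, 0.66 and 0.65, were not called. Smurf1, Smurf2, Ski, Skil, Tgif1, Tgif2, Zfyve9 and Strap were not called either, with log2 fold changes of 0.27 to 0.94.

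Target genes split in their response. Of 14, 8 were called higher on both scales, with a median of 2.19, or 1.81 after median-ratio scaling. Acta2, smooth muscle actin, which is also in the smooth muscle marker list, was highest with a log2 fold change of 3.91 (SE 0.36, adjusted p = 6.6e-07, limma), from 0.952 to 2.97 RPKM in AdCMV mice to 15.1 to 54.7 RPKM in AdVEGF mice. The collagen genes Col1a1, Col1a2 and Col3a1 were at 3.51, 3.30 and 3.10, and Snai1, Tagln, Cdkn2b and Ctgf were between 2.14 and 2.58. The tested targets not called were the cell cycle inhibitor Cdkn1a at -0.30, Tgfbi at 0.50, Snai2 at 0.63, Bhlhe40 at 0.67, Fn1 at 0.82 and Timp1 at 1.17. After median-ratio scaling Cdkn1a was lower, at -0.70 (adjusted p = 0.0036, limma), short of the fold threshold. The matrix and contractile genes among the targets are also products of activated stellate cells and smooth muscle, whose markers moved as given above.

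**Figure D5:**
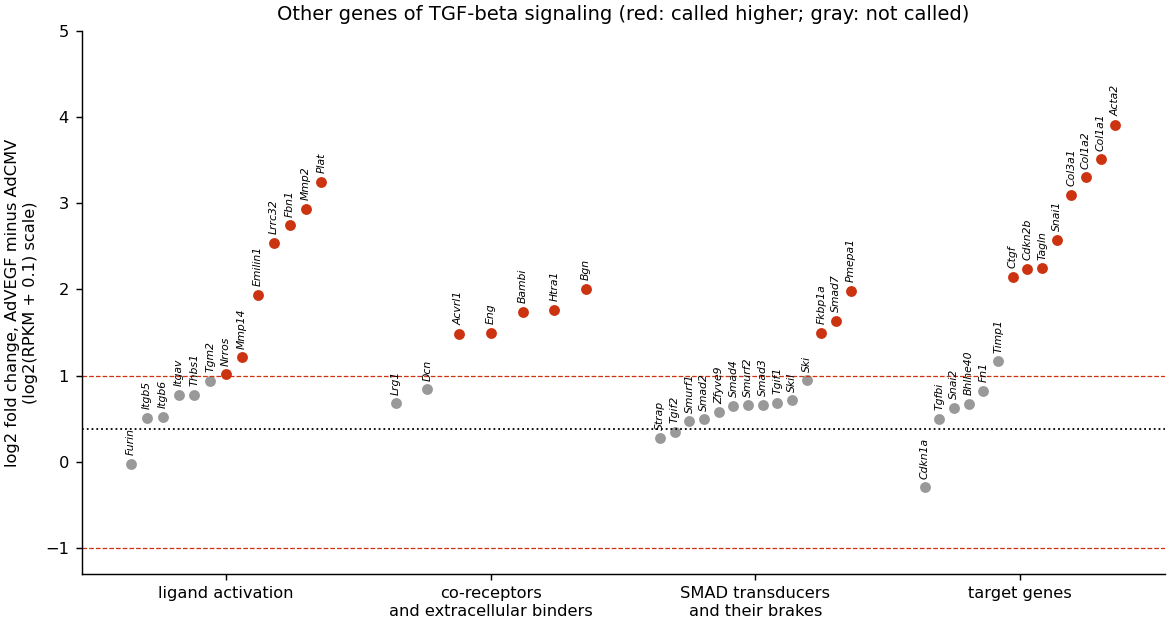
Log2 fold change, AdVEGF minus AdCMV, of the 48 tested genes in 4 lists of TGF-beta signaling, with called genes in red, others in gray, the fold threshold dashed and the median of all tested genes dotted. Called genes make up 8 of 14 targets, up to Acta2 at 3.91, and 3 of 14 SMAD transducers and brakes, and no gene lies below the lower dashed line.

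For each tested member, the genes most alike over the 10 mice were found by Pearson's r of log2 values after median-ratio scaling. The 10 points fall into 2 groups of mice, so r is high for any gene that differs in the same way between them, and the values are descriptions. Acta2 was the closest to Tgfb2 (r = 0.983), Kcnq1 to Tgfb3 (r = 0.988), Tns3 to Tgfb1 (r = 0.971), Bmp6 to Tgfbr3 (r = 0.972), Nid2, a basement membrane protein, to Ltbp4 (r = 0.991), Taf9b to Tgfbr2 (r = 0.956), Zfp64 to Tgfbr1 (r = 0.926) and Pigx to Ltbp3 (r = 0.972). The next closest were Map4k3 and Arhgef25 for Tgfb2, Pea15a and Ppp1r14a for Tgfb3, Sema6d and Mrc1 for Tgfbr3, and Rgl1 and Ptprm for Ltbp4.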

How the data were processed

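Liver RNA of 5 AdVEGF and 5 AdCMV mice was sequenced, and the labels call the samples biological replicates. According to the study's methods and the submitters' processing notes, the authors mapped the reads with TopHat to mm9, used HOMER, brought each library to 1 fixed total of uniquely mapped tags, and deposited, for 24016 transcripts, an RPKM value in each mouse. The strand setting and the test behind the deposited log fold change and FDR columns are not given in the sources used here, and these columns were not used.

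The 5 transcripts without a symbol, at most 0.00534% of the reads counted on transcripts, were left out. Reads behind each value were recovered from the steps of the RPKM values (99.969% to 99.982% whole). A count of 3 reads on 1 kb correspond to 0.222 to 0.536 RPKM, which covers counting error only. Deposited RPKM values were tested with limma 3.58.1 (R 4.3.3, lmFit and eBayes with trend) on log2(RPKM + 0.1) for transcripts with a mean over 0.5 RPKM in a group, with Benjamini-Hochberg adjustment over all 13933. The log scale understates changes of low genes. Tables and figures were made with Python 3.11.15, pandas 2.3.3 and matplotlib 3.10.9, and the test was tested on simulated data.

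All 10 members are named. Of each pathway list, the 4 largest called changes and the genes not called are named, with the 3 genes most alike to each tested member. Members and lists were chosen with earlier results of these data known. Of the lists 1 gene, and of the transcripts that overlap a member 1, were left out and are not reported here. Alternatives were median-ratio scaling, totals without the Mup genes, pseudocounts of 1 and 0.01, no filter or 1 RPKM, a replicate block, 1 row per symbol, voom on recovered reads, and leaving out mice.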

Additional observations from a re-analysis of the deposited data

Results flagged for a closer look

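Samples were checked for a single value far from the other 4 of its group, in 126 groups over the 10 members and the pathway lists. Of these, 14 stood out, and none of the 20 groups of the members did; chance singles out about 1 in 20 groups. In AdVEGF mouse 4 the highest values were those of Thbs1 (9.19 RPKM), Bgn (76.1 RPKM), Lrg1 (1105 RPKM), Timp1 (19.3 RPKM) and Snai1 (8.17 RPKM). This mouse also had the highest Tgfb2, Tgfb3 and neutrophil marker sum. In AdCMV mouse 3 the values of Plat (1.36 RPKM), Pmepa1 (3.79 RPKM), Cdkn1a (28.0 RPKM) and Bhlhe40 (31.3 RPKM) stood above the others, and in AdCMV mouse 4 that of Eng (8.56 RPKM) stood below. Single cases were Fn1 in AdCMV mouse 5 (136 RPKM), Itgb6 in AdVEGF mouse 2 (9.74 RPKM), Acvrl1 in AdVEGF mouse 3 (5.39 RPKM) and Tgfbi in AdVEGF mouse 1 (18.5 RPKM).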

How the results depend on the processing

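Under 31 alternative settings, 11 of them chosen after seeing the data, 5 to 6 members were called higher and 0 lower, and 19 to 30 pathway genes higher and 0 lower. Tgfb1, Tgfb2, Tgfb3, Tgfbr3 and Ltbp4 were called in all 31. Tgfbr2 was called in 16, and its log2 fold change was 0.72 with totals without the Mup genes, 0.96 with a pseudocount of 1, 0.72 with voom and median-ratio scaling, 0.88 without AdCMV mouse 4 and 0.58 to 0.83 when each mouse was left out after median-ratio scaling. Leaving out each mouse on the deposited scale gave 5 to 6 members called higher. Without AdCMV mice 3 and 5, Tgfbr1 reached 0.89 (adjusted p = 0.00277, limma), still below the fold threshold. These mice had the highest Tgfbr1 of their group, so leaving them out had to raise the difference, and this setting was chosen after seeing the data. Untested Ltbp1 fell to 0.26 with a pseudocount of 1. Same-numbered mice of the 2 groups correlated at r = 0.0076 to 0.29 in their deviations, and 3 of 5 AdCMV mice correlated best with their own number, a hint of pairing from the data. The labels name no shared litter, batch or day, and not every correlation was over 0.1, so the numbers were not taken as pairs. With the replicate block, 6 members were called higher and 0 lower, 24 pathway genes higher and 0 lower, and the adjusted p of Tgfb1 was 1.8e-06 (limma). Depth limits Ltbp1 and Ltbp2, and Tgfb2 and Tgfb3 in AdCMV mice.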
